A study of Mus musculus with 6 samples.

Results

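The mitochondrially encoded transcripts described here are the rows of the deposited table whose gene symbol starts with mt-. The rule found 13 genes of 33641 gene symbols in the table, each with 1 of the 105129 transcript rows, and all 13 were protein-coding. No row for a mitochondrial rRNA or tRNA gene was among them (0 and 0 genes), and these classes are not analysed here. RNA-seq libraries from quadriceps muscle, poly-A selected and made with a strand-marking kit, came from 6 male mice aged 4 months, littermates of heterozygous parents, with tissue taken at about ZT4 (4 hours after lights on). The homozygous group was 3 mice carrying 2 copies of an allele made to match the human variant rs6190 of the glucocorticoid receptor gene. The WT group was 3 mice with 2 copies of the reference allele. The comparison asks which muscle transcripts differ with that allele. The allele was inherited, so it is not limited to muscle fibres.

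The mitochondrial genome is a small circle that is transcribed from both strands as long precursors, which are then cut into single RNAs, in large part at the tRNAs that lie between the other genes. The mRNAs made in this way encode core subunits of respiratory complexes I, III and IV and of the ATP synthase, complex V. All the other proteins of these complexes, and every protein that copies, cuts, stabilises or translates mitochondrial RNA, come from nuclear genes. Oxidative muscle fibres hold more mitochondria than glycolytic ones. Insertions of mitochondrial DNA in the nuclear chromosomes leave copies of these genes, annotated as pseudogenes.

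The members fell into 4 complexes. Positions are on the mitochondrial chromosome of GRCm38, the assembly also called mm10, which is the build named in the submitters' processing notes, with the GENCODE M21 annotation. Complex I had 7: mt-Nd1 (2751 to 3707), mt-Nd2 (3914 to 4951), mt-Nd3 (9459 to 9806), mt-Nd4l (9877 to 10173), mt-Nd4 (10167 to 11544), mt-Nd5 (11742 to 13565) and mt-Nd6 (13552 to 14070). Complex III had mt-Cytb (14145 to 15288), the cytochrome b subunit. Complex IV had the catalytic core of cytochrome c oxidase, mt-Co1 (5328 to 6872), mt-Co2 (7013 to 7696) and mt-Co3 (8607 to 9390). Complex V had mt-Atp8 (7766 to 7969) and mt-Atp6 (7927 to 8607), of the membrane part of the ATP synthase. Each was annotated as a single uninterrupted exon, and mt-Nd6 was the only 1 of the 13 on the minus strand.

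Neighbouring members share bases, which limits how far their values are separate measurements. mt-Nd4l and mt-Nd4 overlapped by 7 bases, mt-Atp6 and mt-Co3 by 1 base, and mt-Nd5 and mt-Nd6 by 14 bases on opposite strands. mt-Atp8 and mt-Atp6, which are translated from 1 mRNA, overlapped by 43 bases. The end of the first and the start of the second are shown because a fragment from the shared part, in capitals, belongs to both.
mt-Atp8, chrM:7897-7969, plus strand: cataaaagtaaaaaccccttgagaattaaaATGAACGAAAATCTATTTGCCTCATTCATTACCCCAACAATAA
mt-Atp6, chrM:7927-7999, plus strand: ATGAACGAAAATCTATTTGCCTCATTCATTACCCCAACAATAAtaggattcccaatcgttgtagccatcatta

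Of the 13 members, 9 had a nuclear copy, defined as an annotated transcript outside the mitochondrial chromosome matching at 95% identity or more over at least 100 bases. There were 11 such copies, all with a row in the table, and 7 of them differed from the mitochondrial gene at no more than 1 aligned base. These 7 lie in 1 stretch of 4663 bases on chromosome 1 (24611535 to 24616197), in the same gene order as in the mitochondrial genome. They are Gm29216 (part of mt-Co1), Gm28661 (mt-Co2), Gm10925 (mt-Atp6), Gm28437 (mt-Co3), Gm28438 (mt-Nd3), Gm10222 (mt-Nd4l) and Gm28439 (part of mt-Nd4). The other 4 copies carried more differences, and 3 of them lie on chromosome 2. No annotated copy by this definition was found for mt-Nd1, mt-Atp8, mt-Nd6 or mt-Cytb.

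The stretch of mt-Co2 in which the chromosome 2 copy differs most shows how the near and the far copy compare. Capitals mark the 7 bases of 90 at which Gm13341 differs from mt-Co2; the copy on chromosome 1 has the mitochondrial base at each of them.
mt-Co2, chrM:7457-7546, plus strand: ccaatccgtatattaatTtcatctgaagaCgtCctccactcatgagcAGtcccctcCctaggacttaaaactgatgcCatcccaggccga
Gm28661, chr1:24615032-24615121, minus strand: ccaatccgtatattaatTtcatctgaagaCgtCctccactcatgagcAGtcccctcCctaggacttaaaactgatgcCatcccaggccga
Gm13341, chr2:22587441-22587530, minus strand: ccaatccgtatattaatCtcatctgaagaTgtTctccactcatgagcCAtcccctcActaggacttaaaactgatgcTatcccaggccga

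For mt-Nd3 and mt-Co1 the copy on chromosome 1 differed at 1 aligned base, in capitals, and the first aligned bases are shown. A read that lies wholly within the aligned part and does not cover that base cannot be assigned to either locus by its sequence. For mt-Co1 the aligned part is bases 1063 to 1545 of the gene.
mt-Nd3, chrM:9459-9491, plus strand: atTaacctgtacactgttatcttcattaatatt
Gm28438, chr1:24613087-24613119, minus strand: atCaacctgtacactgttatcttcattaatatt
mt-Co1, chrM:6390-6423, plus strand: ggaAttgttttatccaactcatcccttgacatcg
Gm29216, chr1:24616155-24616188, minus strand: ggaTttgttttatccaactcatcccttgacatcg

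Values are TPM, transcript abundance per 1000000 transcripts, corrected for transcript length; TPM keeps no record of sequencing depth, so depth is not given. WT replicate 3 stood apart from the other libraries. The 13 members made up 20.9%, 27.3% and 25.3% of TPM in homozygous replicates 1, 2 and 3, and 26.2%, 33.9% and 14.3% in WT replicates 1, 2 and 3. The lowest and the highest library were both WT, so the groups overlapped, with means of 24.5% ± 3.28 and 24.8% ± 9.91 (SD, n = 3 each).

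No member passed the test for a difference between genotypes. Of the 13, 0 had an adjusted p under 0.05 (limma on log2(TPM + 1), Benjamini-Hochberg over 11099 genes), where 0% of all genes passed. The adjusted p of the members in limma ran from 0.394 to 0.994, and at an unadjusted p under 0.05 there were also 0 of 13, where 23.7% of all genes tested were higher and 0.55% lower. Log2 fold changes (homozygous minus WT) were above 0 for 8 members and below 0 for 5, with a median of 0.05. Over all genes tested the median was 0.26 and 85.8% were above 0. In 0 of 13 members did the homozygous and WT libraries separate without overlap, where 34.7% of all genes tested separated with the homozygous libraries above and 0.73% with them below. Scaling moved that baseline: the median of all genes was -0.01 with quantile normalization and -0.04 with median centring, where the members' medians were 0.08 (8 above 0, 5 below) and -0.25 (4 above, 9 below), so the members lay above all genes in the first and below in the second. Standard errors of the members ran from 0.22 to 0.55 on the log2 scale, with 3 libraries a group.

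**Figure D1:**
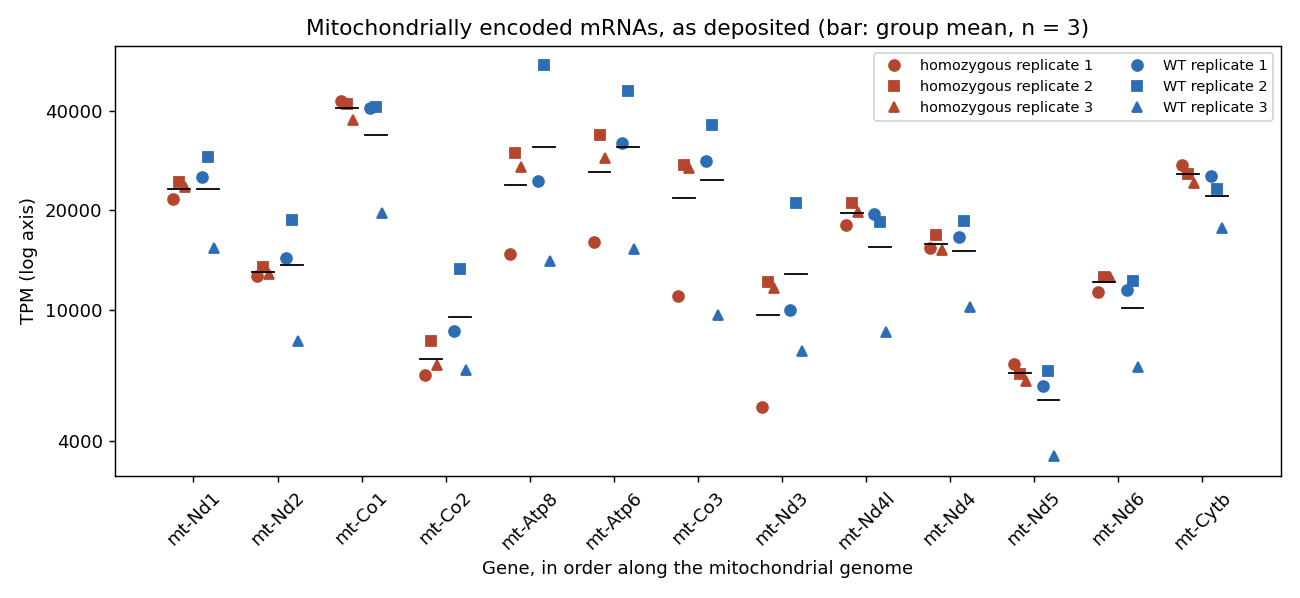
TPM (log axis) of the 13 mitochondrial mRNAs, in order along the mitochondrial genome, in 3 homozygous (red) and 3 WT (blue) libraries; symbols mark the replicate number and black bars the group mean. WT replicate 3 is the lowest library for 11 of the 13 genes, and WT replicate 2 the highest for 8.

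The lowest and highest values fell mostly in 2 WT libraries. WT replicate 3 lay below both other WT libraries for 13 of 13 members and was the lowest of all 6 libraries for 11. The exceptions were mt-Co2 and mt-Nd3, which were lowest in homozygous replicate 1. WT replicate 2 was the highest library for 8 of 13. Homozygous replicate 1 was mixed, highest for mt-Co1, mt-Nd5 and mt-Cytb and lowest for mt-Co2 and mt-Nd3. The spread between the lowest and the highest library was 1.55-fold for mt-Cytb and 4.17-fold for mt-Nd3.

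Of the complex I genes, mt-Nd1, a subunit of the membrane arm near the quinone site, was 21666, 24400 and 23508 TPM in homozygous muscle and 25207, 29092 and 15340 TPM in WT muscle. mt-Nd2, another membrane-arm subunit, was 12606, 13495 and 12780 TPM in homozygous and 14331, 18706 and 8035 TPM in WT muscle. For both, the 3 homozygous libraries lay between WT replicate 3 and WT replicate 1. The log2 fold changes were 0.05 (SE 0.28; limma, adjusted p 0.916) for mt-Nd1 and 0.0045 (SE 0.31; adjusted p 0.994 in limma) for mt-Nd2.

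mt-Nd4 and mt-Nd5 encode the large proton-pumping subunits of the membrane arm. mt-Nd4 was 15408, 16769 and 15177 TPM in homozygous and 16554, 18525 and 10206 TPM in WT libraries. mt-Nd5 was 6824, 6382 and 6077 TPM in homozygous and 5860, 6520 and 3589 TPM in WT libraries. In both genes WT replicate 3 was alone below the rest, and the other 5 libraries lay close together. mt-Nd4l, which shares its mRNA with mt-Nd4, was 18045, 20991 and 19809 TPM in homozygous and 19472, 18438 and 8575 TPM in WT libraries. Its log2 fold change of 0.43 (SE 0.33) was the largest positive value of the 13 and did not pass (limma, adjusted p 0.405). Without WT replicate 3 it was 0.05.

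mt-Nd6 is read from the other strand, and its mRNA is known to lack a long poly-A tail. It was 11320, 12523 and 12551 TPM in homozygous and 11437, 12177 and 6686 TPM in WT libraries, with WT replicate 3 again alone at the bottom. The ratio of mt-Nd6 to mt-Nd5, its neighbour on the opposite strand, was 1.66, 1.96 and 2.07 in homozygous and 1.95, 1.87 and 1.86 in WT libraries. The sources used here do not say whether the quantification used the strand of the reads. Without it, reads from the 2 strands over mt-Nd6 cannot be told apart, in the 14 shared bases or beyond them. mt-Nd3 was 5051, 12160 and 11638 TPM in homozygous and 9955, 21079 and 7489 TPM in WT libraries. Unlike the other complex I genes, mt-Nd3 was lowest in homozygous replicate 1, and its highest library, WT replicate 2, stood well above all the others.

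Cytochrome b, mt-Cytb, gave the smallest spread of the 13. It was 27403, 25747 and 24216 TPM in homozygous muscle and 25401, 23151 and 17718 TPM in WT muscle. The log2 fold change was 0.24 (SE 0.22; limma, adjusted p 0.488).

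Among the cytochrome c oxidase genes, mt-Co1, the subunit that holds the oxygen-reducing site, was 42870, 42069 and 37497 TPM in homozygous and 40756, 41034 and 19582 TPM in WT libraries. Groups averaged 40812 ± 2899 and 33791 ± 12306 TPM (SD, n = 3 each). In limma, which compares mean log2(TPM + 1), the difference was 0.35 (SE 0.32), and -0.0054 without WT replicate 3. mt-Co2, which takes electrons from cytochrome c, was 6353, 8038 and 6789 TPM in homozygous and 8595, 13314 and 6572 TPM in WT libraries. WT replicate 3 lay within the homozygous range for mt-Co2. mt-Co3 was 11025, 27390 and 26793 TPM in homozygous and 28254, 36287 and 9593 TPM in WT libraries. Here 1 library of each group, homozygous replicate 1 and WT replicate 3, fell far below the rest.

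The ATP synthase pair showed the same low libraries. mt-Atp6, part of the proton channel, was 16004, 33769 and 28843 TPM in homozygous and 32048, 46030 and 15286 TPM in WT libraries. mt-Atp8 was 14717, 29739 and 27087 TPM in homozygous and 24504, 54928 and 14014 TPM in WT libraries. Both were lowest in WT replicate 3, with homozygous replicate 1 next, and highest in WT replicate 2. The ratio of mt-Atp8 to mt-Atp6 was between 0.765 and 1.19 over the 6 libraries as deposited, and between 0.422 and 1.13 with the nuclear copy of mt-Atp6, described below, added to it. Their log2 fold changes were -0.22 (SE 0.50) for mt-Atp8 and -0.18 (SE 0.45) for mt-Atp6, far inside the spread between libraries (limma, adjusted p 0.776 and 0.802).

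Per unit of length, mt-Co1 was the most abundant member at 37301 ± 8873 TPM (SD over 6 libraries) and mt-Nd5 the least at 5875 ± 1169 TPM. Between them the order was mt-Atp6, mt-Atp8, mt-Cytb, mt-Co3, mt-Nd1, mt-Nd4l, mt-Nd4, mt-Nd2, mt-Nd3, mt-Nd6 and mt-Co2. Of the neighbours in this order, mt-Nd1 lay above mt-Nd4l in 6 of 6 libraries. Other neighbours changed places in at least 1 library, and mt-Cytb lay above mt-Co3 in 2 of 6 although its mean was higher. Several of these ranks rest on how reads were divided with the nuclear copies, which is described next.

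The near-identical copies on chromosome 1 carried a large part of the signal. Gm29216, the copy of the last part of mt-Co1, was listed at 43997, 40680 and 37997 TPM in homozygous and 46321, 42384 and 34129 TPM in WT libraries. Gm28661, whose sequence is identical to mt-Co2 over 681 bases, was listed at 34006, 34184 and 33596 TPM in homozygous and 35536, 32068 and 21210 TPM in WT libraries, above mt-Co2 itself in each library. Gm28437, identical to mt-Co3 over 783 bases, was listed at 29588, 18606 and 17696 TPM in homozygous and 20534, 15322 and 12151 TPM in WT libraries. All copies together made up 13%, 10.6% and 10.3% of TPM in homozygous and 11.8%, 9.26% and 7.37% in WT libraries.

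The far copies were listed at no more than 26.1 TPM in any library, and the levels of the near copies varied widely. The near copy Gm28438, of mt-Nd3, ran from 3.43 to 3544 TPM. In homozygous replicates 2 and 3, at 3.43 and 15.6 TPM, it lay within the range of the far copies. Gm13341, the chromosome 2 copy of mt-Co2 shown above, was between 3.28 and 26.1 TPM, and Gm13340, a chromosome 2 copy of all of mt-Co1 at 97.6% identity, was between 9.48 and 21.3 TPM. Gm10222 and Gm28439, near copies identical to mt-Nd4l and to part of mt-Nd4 over their aligned bases, were listed at 0 in all 6 libraries. So 5 of the 7 near copies were above 0 in every library and 2 were not above 0 in any. The sources used here do not say how reads were divided between identical sequences, and values of these members and copies are uncertain as single rows.

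**Figure D2:**
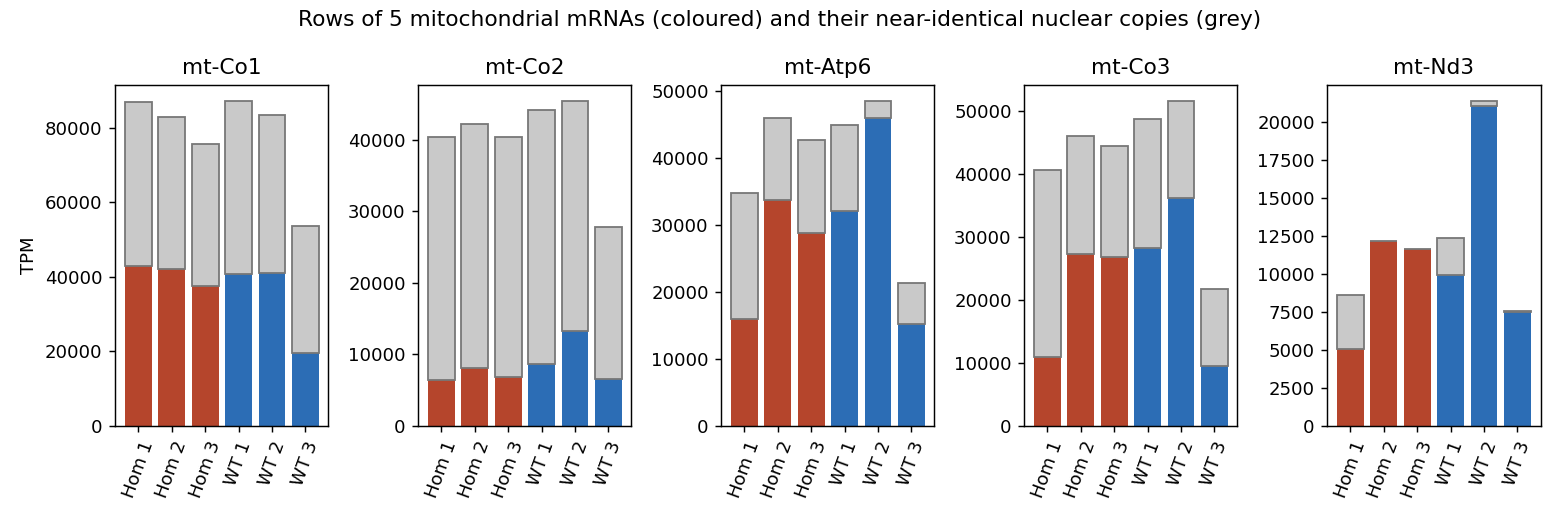
TPM of 5 mitochondrial mRNAs (red, homozygous; blue, WT) with the TPM of their nuclear copies stacked above in grey, for each library; the vertical axes differ. For mt-Atp6, mt-Co3 and mt-Nd3 homozygous replicate 1 has a large grey part, and the stacked totals of that library lie nearer to the other libraries than its coloured bars do.

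The division between gene and copy differed from library to library. For mt-Atp6 and its copy Gm10925, the copy held 54.1%, 26.6% and 32.4% of their joint TPM in homozygous and 28.7%, 5.15% and 28.4% in WT libraries. For mt-Co3 the copy held 72.9%, 40.5% and 39.8% in homozygous and 42.1%, 29.7% and 55.9% in WT libraries. For mt-Nd3 it held 41.2% in homozygous replicate 1 and 19.5% in WT replicate 1, and between 0.0282% and 1.38% in the other 4 libraries. In these 3 genes homozygous replicate 1 had the largest share under the copy. For mt-Co2 the copies held 81.0% to 84.3% in homozygous and 70.7% to 80.5% in WT libraries, so the groups did not overlap, and for mt-Co1 they held 49.2% to 50.7% in homozygous and 50.8% to 63.5% in WT libraries. These shares were given no test.

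Adding each copy to its mitochondrial gene changed the sign of 3 members. The log2 fold change went from -0.37 (SE 0.28; -0.61 without WT replicate 3 and -0.10 without WT replicate 2) to 0.10 (SE 0.26) for mt-Co2, from -0.18 (SE 0.45) to 0.19 (SE 0.34) for mt-Atp6, and from -0.09 (SE 0.55) to 0.20 (SE 0.35) for mt-Co3. Of the 13 members, 11 then lay above 0, with a median of 0.16, and 0 passed (limma, adjusted p 0.401 to 0.994), where 0% of all genes passed. mt-Atp8 and mt-Nd3 stayed below 0, at -0.22 (SE 0.50) and -0.24 (SE 0.37).

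With the copies added, the libraries apart from WT replicate 3 drew closer together for mt-Atp6 and mt-Co3. mt-Atp6 was then 34856, 46002 and 42683 TPM in homozygous and 44955, 48527 and 21348 TPM in WT libraries. mt-Co3 was 40612, 45996 and 44489 TPM in homozygous and 48788, 51608 and 21744 TPM in WT libraries. Its spread between the lowest and the highest library went from 3.78-fold to 2.37-fold, and that of mt-Atp6 from 3.01-fold to 2.27-fold. Homozygous replicate 1 was still the lowest homozygous library in both genes, but it now lay well above WT replicate 3. mt-Atp8, with no annotated copy to add, kept its 3.92-fold spread. WT replicate 3 was now the lowest library for 13 of 13 members.

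The group means with copies differed by less than the spread within the WT group for each of the 4 genes below. They were 41180 ± 5723 and 38277 ± 14769 TPM for mt-Atp6, 43699 ± 2777 and 40713 ± 16489 TPM for mt-Co3, 40997 ± 1070 and 39112 ± 9829 TPM for mt-Co2, and 81723 ± 5758 and 74751 ± 18305 TPM for mt-Co1 (homozygous and WT, SD, n = 3 each). A copy shorter than its gene counts as a whole transcript in such a sum, which matters for mt-Co1. Weighted by length, the mean of mt-Co1 was 53854 ± 3785 and 46845 ± 14198 TPM. In that weighting, with the copies added to each gene, mt-Co2 stood at rank 3 in the order of levels (rank 12 as deposited), at 39915 ± 6317 TPM over 6 libraries, beside mt-Co3 at 42182 ± 10699 and mt-Atp6 at 39680 ± 10142 TPM.

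**Figure D3:**
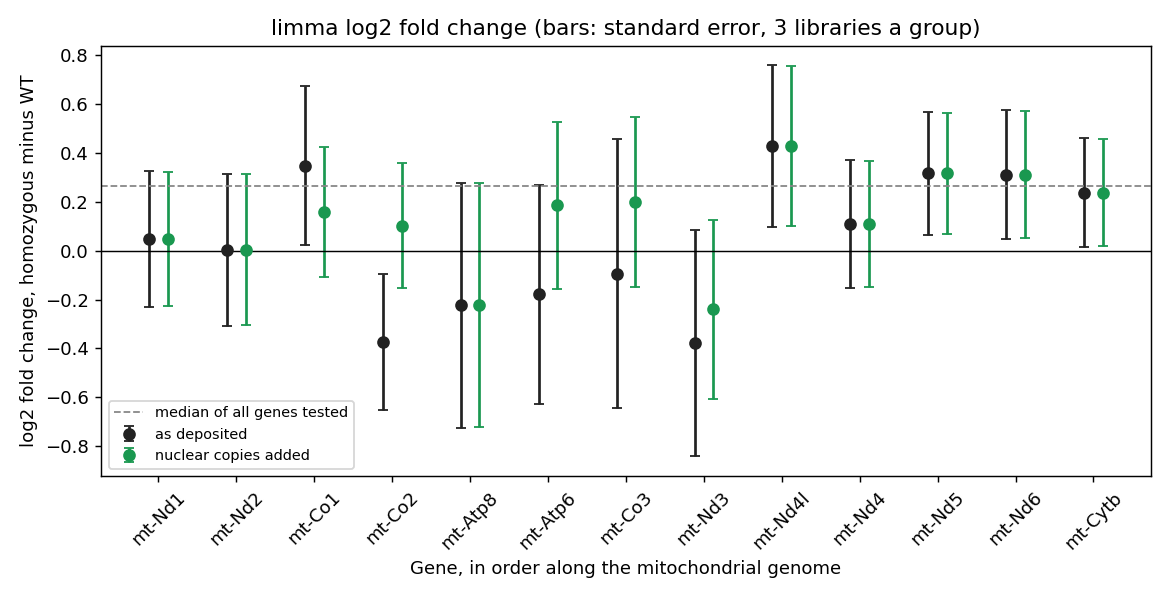
Log2 fold change (homozygous minus WT) with its standard error from limma for the 13 genes as deposited (black) and with nuclear copies added (green), 3 libraries a group; the dashed line is the median of all genes tested, 0.26. mt-Co2, mt-Atp6 and mt-Co3 lie below 0 as deposited and above 0 with their copies added.

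No member passed in the alternatives that called genes elsewhere: 0 of 13 with array weights, where 7.3% of all genes passed, with each isoform as a row (0.0425%), without WT replicate 1 (0.018%, also with copies added) and without WT replicate 2 (0.00901%, and 0.00902% with copies added). Single libraries changed the direction of several members, both ways. Without WT replicate 2 or without homozygous replicate 1, 12 of 13 members were above 0, with medians of 0.28 and 0.14 (all genes tested, 0.30 and 0.29), and 4 members changed sign in each. Without WT replicate 3, 4 also changed sign: 9 of 13 members had a log2 fold change below 0, with a median of -0.23, while all genes tested had a median of 0.20, and 0 members passed (limma, lowest adjusted p 0.188, for mt-Co2). With copies added and WT replicate 3 left out, 9 of 13 were again below 0, with a median of -0.15. Only mt-Nd4l, mt-Nd5, mt-Nd6 and mt-Cytb stayed above 0, at 0.05, 0.05, 0.04 and 0.09. Of these 4 members, mt-Cytb alone changed sign under another scaling, to -0.063 with median centring.

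Shares of the mt- total remove the level of the library as a whole. The shares of a library have a fixed sum, so they are tied: a high share of 1 member lowers the others. mt-Atp8 made up 16.2% in WT replicate 2 and 7.03% to 10.9% in the other libraries. As deposited, the homozygous and WT libraries separated for 2 of 13 shares. mt-Nd4l made up 8.62%, 7.68% and 7.84% of the mt- total in homozygous and 7.42%, 5.43% and 6.01% in WT libraries, so each homozygous library lay above each WT library (exact permutation test, two-sided, p = 0.1). The mt-Nd4l share was lowest in WT replicate 2, although its 18438 TPM there lay within the homozygous range of 18045 to 20991 TPM. mt-Co2 made up 3.04%, 2.94% and 2.69% in homozygous and 3.28%, 3.92% and 4.61% in WT libraries, each homozygous library below each WT library (exact permutation test, two-sided, p = 0.1). With 3 against 3 libraries 0.1 is the smallest p this test can give, so no share can pass 0.05, and these p-values were not adjusted for the 13 shares compared.

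**Figure D4:**
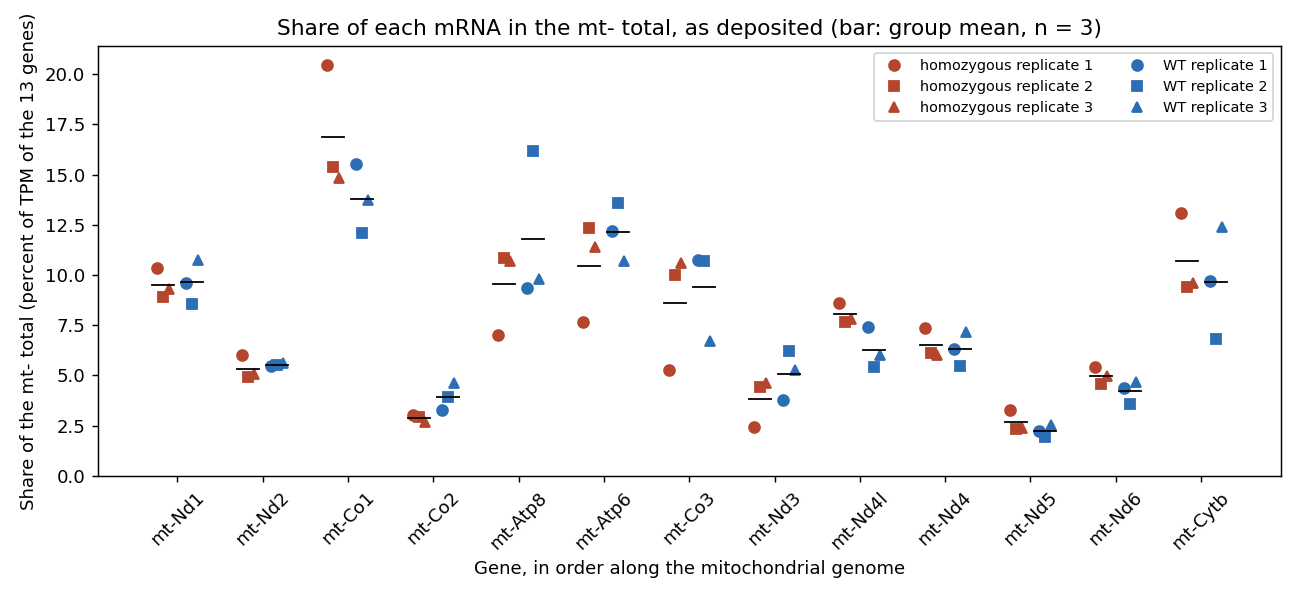
Share of each gene in the mt- total (percent of the TPM of the 13 genes) as deposited, by library; red is homozygous, blue is WT, symbols mark the replicate number and black bars the group mean. mt-Nd4l (homozygous above) and mt-Co2 (homozygous below) are the 2 genes whose groups do not overlap.

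The share of mt-Co2 depended on the division with its copy. With copies added by length it was 12.4% ± 0.544 in homozygous and 12.7% ± 1.56 in WT libraries (SD, n = 3 each; exact permutation test, p = 0.8), and the groups overlapped. The share of mt-Nd4l stayed apart, at 5.84%, 5.98% and 6.01% in homozygous and 5.59%, 4.58% and 4.44% in WT libraries. The ratio of mt-Nd4l to mt-Nd4, which lie on 1 mRNA, was 1.17, 1.25 and 1.31 in homozygous and 1.18, 0.995 and 0.840 in WT libraries, so the groups overlapped at homozygous replicate 1 and WT replicate 1. With copies added by length the shares of mt-Nd6 (3.68% ± 0.121 against 3.26% ± 0.222, homozygous above), mt-Nd1 (7.03% ± 0.0918 against 7.47% ± 0.416), mt-Nd2 (3.93% ± 0.129 against 4.31% ± 0.293) and mt-Nd3 (3.26% ± 0.421 against 4.26% ± 0.925, the last 3 with homozygous below) also separated (SD, n = 3 each; exact permutation test, p = 0.1 each). That weighting was added after seeing the data, and the genes that separated depended on it. With copies added whole, as planned, mt-Nd6 and mt-Nd1 separated, but mt-Nd2 and mt-Nd3 overlapped (exact permutation test, p = 0.2 each). The share of mt-Nd5 separated with copies added whole (homozygous above; exact permutation test, p = 0.1) and overlapped by length (p = 0.3).

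By complex, the range of shares over libraries depended on the copies. As deposited, complex I ran from 36.7% to 43.4% of the mt- total and complex IV from 25.1% to 29.6%. With copies added by length the 7 complex I genes made up 30.6%, 30.4% and 30.8% of the mt- total in homozygous and 30.2%, 31.0% and 31.1% in WT libraries. Complex IV made up 44.6%, 40.7% and 40.7% in homozygous and 42.6%, 37.6% and 41.4% in WT libraries. Complex V was at 16.0%, 21.5% and 21.1% in homozygous and 19.9%, 25.7% and 18.3% in WT libraries, and complex III ran from 5.75% to 9.18%. The groups overlapped for each of the 4 complexes.

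The mt- total with copies was 33.9%, 37.9% and 35.6% of TPM in homozygous and 38.0%, 43.2% and 21.6% in WT libraries, with means of 35.8% ± 2.0 and 34.3% ± 11.3 (SD, n = 3 each). Fibre-type genes also stood apart in WT replicate 3. The 13 fast-fibre genes fixed as markers, among them Myh4 and Actn3, were all above 0 in every library and made up 23.4% of TPM in WT replicate 3, and between 9.77% and 13.3% in the other 5. The 11 slow-fibre genes, such as Myh7 and Tnnt1, were also all above 0 in every library, and made up 0.0246% in WT replicate 3, 0.112% and 0.174% in the other WT libraries and 0.190%, 0.970% and 0.224% in the homozygous libraries. For the slow-fibre list each homozygous library lay above each WT library, and for the fast-fibre list the groups overlapped. The part of fibre type in the mitochondrial values was not tested. In bulk muscle fewer fibres of a type and less RNA per fibre cannot be told apart.

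**Figure D5:**
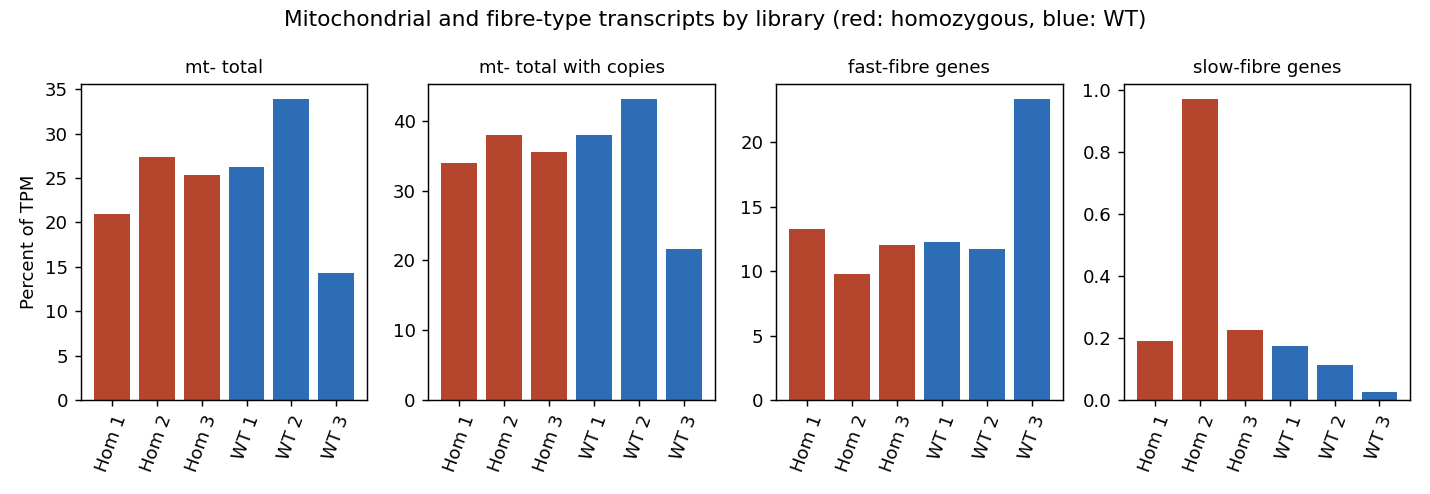
Percent of TPM held by the 13 mitochondrial mRNAs, by the same with nuclear copies, by 13 fast-fibre genes and by 11 slow-fibre genes in each library (red, homozygous; blue, WT); the vertical axes differ. WT replicate 3 has the lowest mitochondrial and slow-fibre share and the highest fast-fibre share of the 6 libraries.

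Markers of other cells, 5 genes in each list and all above 0 in every library, were a small part of the RNA. Summed over the list, adipocyte genes were 5.80 to 23.8 TPM in homozygous and 5.89 to 17.1 TPM in WT libraries, red blood cell genes 536 to 781 and 476 to 851 TPM, endothelial genes 34.0 to 40.2 and 27.3 to 39.1 TPM, and fibroblast genes 171 to 202 and 94.2 to 240 TPM. Immune genes, which include Ighm, were 29.7 to 59.8 TPM in homozygous and 85.6 to 105 TPM in WT libraries, and Schwann cell genes 28.8 to 105 and 16.1 to 25.1 TPM. The groups did not overlap for the last pair of lists; their part in the mitochondrial values was not tested.

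The nuclear genes that maintain, transcribe and process the mitochondrial genome did not pass the test either. Of 57 listed symbols, 55 were in the table and 51 were above the filter on low values (1 TPM in at least 3 libraries), and 0 of 51 passed (limma, lowest adjusted p 0.168), where 0% of all genes passed. At an unadjusted p under 0.05 there were 9 higher and 0 lower of 51, where 23.7% of all genes tested were higher and 0.55% lower. The groups separated with homozygous above for 16 of 51 and with homozygous below for 0, where the shares over all genes were 34.7% and 0.73%. The list's median log2 fold change was 0.19, with 0.26 over all genes tested. Above 0 were 41 of 51, where 85.8% of all genes tested were, but 14 of 51 with quantile normalization and 12 of 51 with median centring, so the directions given next are relative to the TPM scale.

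Among the transcription genes 6 of 7 tested were above 0, where 85.8% of all genes were. Tfam, which packages mitochondrial DNA and opens its promoters, was 31.7, 30.4 and 37.2 TPM in homozygous and 27.6, 27.5 and 18.5 TPM in WT libraries, each homozygous library above each WT library. Its log2 fold change was 0.43 (SE 0.18; limma, adjusted p 0.200). Polrmt, the mitochondrial RNA polymerase, was 16.6, 14.1 and 15.4 TPM in homozygous and 11.5, 16.0 and 24.7 TPM in WT libraries, highest in WT replicate 3. Its log2 fold change was -0.11 (SE 0.25), and 0.16 without WT replicate 3. Among other named pathway genes, Slirp, Fastkd2, Dhx30 and 1110008L16Rik were also highest in WT replicate 3, and Tfam, Lrpprc, Nsun4, Angel2 and Elac2 were lowest there.

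Of the genes for RNA stability and decay 16 of 19 tested were above 0, where 85.8% of all genes were. Lrpprc, which with its partner Slirp protects mitochondrial mRNAs and helps their polyadenylation, was 28.8, 28.8 and 22.6 TPM in homozygous and 22.0, 18.6 and 15.6 TPM in WT libraries, without overlap, and its log2 fold change was 0.49 (SE 0.17; limma, adjusted p 0.171). Slirp was 90.2, 91.2 and 88.8 TPM in homozygous and 79.0, 69.7 and 100.2 TPM in WT libraries, with the WT libraries on both sides of the homozygous ones, and its log2 fold change of 0.13 (SE 0.15) was -0.17 with median centring. Angel2 had a log2 fold change of 0.48 (SE 0.15), and Fastkd2, an RNA-binding protein of mitochondrial granules, was the lowest of the list at -0.32 (SE 0.19). Dhx30, a helicase of the same granules, was at -0.16 (SE 0.19), and at 0.04 with array weights.

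Of the processing and modification genes 13 of 17 tested were above 0, below that share. Nsun4, which methylates mitochondrial ribosomal RNA, was 13.3, 10.6 and 12.8 TPM in homozygous and 9.29, 7.71 and 7.53 TPM in WT libraries, without overlap. Its log2 fold change of 0.53 (SE 0.15) had the smallest p-value of the list (limma, unadjusted p 0.00821, adjusted p 0.168). Elac2, which cuts the 3' ends of mitochondrial tRNAs out of the precursor, was 11.3, 12.5 and 14.8 TPM in homozygous and 8.73, 9.89 and 7.84 TPM in WT libraries, and 1110008L16Rik was at -0.18 (SE 0.20). Of the 8 replication and maintenance genes tested 6 were above 0, with log2 fold changes from -0.03 to 0.35.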

How the data were processed

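The authors deposited a table of TPM, with 1 row per Ensembl transcript and 1 column per library, each column summing to 1000000. Each column matched 1 library by name, and 0 were left unmatched. FastQC, Trimmomatic, HISAT2 and kallisto and the build mm10 are listed, without a role or version, per the submitters' processing notes; the sources used here do not give the annotation release or filters. Values were summed per gene symbol. The 11099 genes reaching 1 TPM in no fewer than 3 libraries entered limma 3.58.1 (R 4.3.3) on log2(TPM + 1), using robust moderation and a trend of variance on mean level. The threshold was 0.05 on p adjusted by Benjamini-Hochberg over all of them, and fold changes, on this scale, understate changes of low genes. Copies were found with blastn 2.17.0 among GENCODE M21 transcripts, from which the sequences shown were also read; copies were matched to the table without version numbers. The 6 libraries are labelled as mice, and p-values measure the spread between them. The limma test was tried on simulated data with independent noise for each gene and library, which leaves out shifts shared by many genes.

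The members and lists were chosen with earlier results of these data known. Named were the 13 members, the copies, Tfam, Polrmt, Lrpprc and Slirp, and the 3 pathway genes with the smallest p-value in each direction; other genes named illustrate a list. The planned naming of rRNA and tRNA genes had no rows to apply to. Of the copies, those with the 3 highest means are given by library. Alternatives were other scalings, no filter, a pseudocount of 0.1, array weights, isoform rows, copies added, a replicate block and leaving out each library. Added after seeing the data were copies added by length, relative to other TPM, and without each library.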

Additional observations from a re-analysis of the deposited data

How the results depend on the processing

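The count of 0 of 13 mitochondrial genes past the threshold was also 0 in each of the 17 alternatives with all or all but 1 of the libraries (lowest adjusted p 0.188 in limma). Of the nuclear genes of mitochondrial gene expression, 0 passed except with array weights. There 2 of 51 passed (Nsun3 and Elac2, named after their values were seen), where 7.3% of all genes tested passed. Of the 13 shares, which are tied by their fixed sum, those that separated the groups numbered 2 as deposited, 4 with copies added and 5 with copies added by length. The difference in the mt- total (homozygous minus WT) was -0.29 percentage points and ran from -5.57 to 4.26 with each library left out in turn; with copies added it was 1.54 and ran from -4.79 to 5.99.

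Signs changed in 31 of 221 member values, and in none for mt-Nd4l, mt-Nd5 and mt-Nd6. The log2 fold change with median centring was -0.25 for mt-Nd1, -0.30 for mt-Nd2, -0.19 for mt-Nd4, -0.063 for mt-Cytb and -0.17 for Slirp, which was -0.064 with quantile normalization. With array weights it was -0.11 for mt-Nd1, -0.18 for mt-Nd2, -0.055 for mt-Nd4, 0.19 for Polrmt and 0.042 for Dhx30, and relative to non-mitochondrial TPM it was -0.0085 for mt-Nd2. With copies added, copies added relative to other TPM, and copies added by length it was 0.10, 0.12 and 0.10 for mt-Co2, 0.19, 0.21 and 0.18 for mt-Atp6, and 0.20, 0.22 and 0.20 for mt-Co3; the cause of the other changes was not tested.

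Leaving out each library in turn gave -0.23 to 0.24 for mt-Nd1, -0.34 to 0.27 for mt-Nd2, -0.0054 to 0.53 for mt-Co1, -0.61 to -0.097 for mt-Co2, -0.69 to 0.30 for mt-Atp8, -0.62 to 0.17 for mt-Atp6, -0.67 to 0.34 for mt-Co3, -0.70 to 0.050 for mt-Nd3, -0.15 to 0.28 for mt-Nd4 and -0.36 to 0.16 for Polrmt. With copies added the ranges were -0.063 to 0.29 for mt-Co1, -0.13 to 0.23 for mt-Co2, -0.19 to 0.40 for mt-Atp6, -0.20 to 0.42 for mt-Co3 and -0.61 to 0.14 for mt-Nd3. The replicate numbers did not pair the libraries (correlations of deviations of -0.07, 0.06 and -0.01, and no library correlated best with its own number), and with the number as a replicate block 0 of 13 and 0 of 51 genes passed. The planned results for mitochondrial rRNA and tRNA genes were not run, since 0 rows met them. TPM keeps no depth, so counting error was not estimated.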
